A study of Mus musculus with 6 samples.

Results

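The genes described here are the transcription factor CREM, its relatives Creb1, Atf1 and Creb3l4, the CREM coactivator ACT (encoded by Fhl5), the kinesin Kif17 that transports ACT, and the germ cell core promoter factors Tbpl1, Gtf2a1l and Taf7l with the general factor Tbp. Members were the probe sets of the deposited value table that the array annotation assigns to 1 of these 10 genes alone, by its current or an older symbol. That gave 21 probe sets for 9 of the 10 genes, out of 45037 non-control probe sets and 18193 genes with a probe set of their own. Atf1 had none, because its only probe set also lists a pseudogene, and no value is given for it. The arrays held RNA from freshly dissected whole testis of adult mice, 3 from DREAM transgenic and 3 from wild type mice, all on a hybrid background of C57BL/6 and CBA. The transgene carries a mutant of DREAM labelled as constitutively active, and the promoter that drives it and the cells that express it are not given in the sources used here. The submitters describe the 3 hybridisations of a group as independent biological replicates, and the number of arrays limits the precision of every value.

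CREM binds the cyclic AMP response element (CRE) and, in round spermatids, is made as activator isoforms that switch on genes for packaging the sperm nucleus and building the tail. ACT, a LIM-only protein of the germ line, is known to activate CREM there without the phosphorylation that CREM needs elsewhere, and a testis isoform of KIF17 is known to carry ACT out of the nucleus. Spermatids also build an altered basal transcription machinery, in which a TBP relative (Tbpl1, also called TRF2 or TLF), a TFIIA relative (Gtf2a1l, ALF) and a TAF7 relative (Taf7l) stand beside or in place of the factors of somatic cells. DREAM, a calcium-binding repressor of transcription encoded by Kcnip3, is known to bind CREM. Setting transgenic beside wild type testis addresses whether transcripts of this machinery differ when the active mutant is present.

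Values are log2 intensities after RMA normalization, with no detection call, so a low value does not say that a transcript is absent. By brightest probe sets, markers of spermatocytes (Sycp1, Sycp3, Hspa2, Spo11, Tex101, Piwil1) read between 8.87 and 12.14. Those of round spermatids read between 9.08 and 12.26, with testis as the labelled tissue. Markers of elongating spermatids ran from 5.47 (Car4) to 14.12, with Prm1 and Prm2 between 14.00 and 14.12. Wild type replicate 2 stood apart from the other arrays, with a Pearson correlation across all probe sets of at most 0.9926 to any other, where each other array reached at least 0.9953 with some array. It was the highest of the 6 arrays at 11 of the 21 probe sets (52.4%), against 22.6% of all probe sets, and the lowest at 0 of them, against 27.4% of all. As a readout of RNA quality, the 3′ probe set of Gapdh exceeded its 5′ probe set (log2) by 0.21, 0.26 and 0.33 in transgenic and 0.16, 0.06 and 0.11 in wild type testis. Those groups did not overlap (exact permutation test, two-sided p = 0.1, the smallest that 3 against 3 can give). The same excess for beta-actin was 0.50 ± 0.03 in transgenic and 0.47 ± 0.05 in wild type testis (SD, n = 3 each), with overlapping groups (exact two-sided p = 0.7).

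None of the 21 probe sets passed the test between transgenic and wild type testis (limma, Benjamini-Hochberg adjusted p under 0.05 over all probe sets; smallest adjusted p = 0.657). Over all probe sets, 0.444% passed. An unadjusted p under 0.05 was reached by 2 of the 21, 1 of Crem and 1 of Creb1, against 6.69% of all probe sets, and the groups did not overlap at 3 of the 21 (14.3%), against 11.3% of all. The median difference, transgenic minus wild type, was -0.01 over the 21 probe sets and 0.02 over all probe sets (log2). A p above the threshold does not show equal levels, so the intervals give what these arrays allow. With the brightest probe set of each gene, the 95% interval of the difference (not adjusted for the number of probe sets) lay within 1.25-fold in either direction for 7 of the 9 genes. Creb1 and Taf7l were the exceptions. The interval lay within 1.5-fold for 20 of the 21 probe sets, the exception being a Crem probe set described next.

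**Figure D1:**
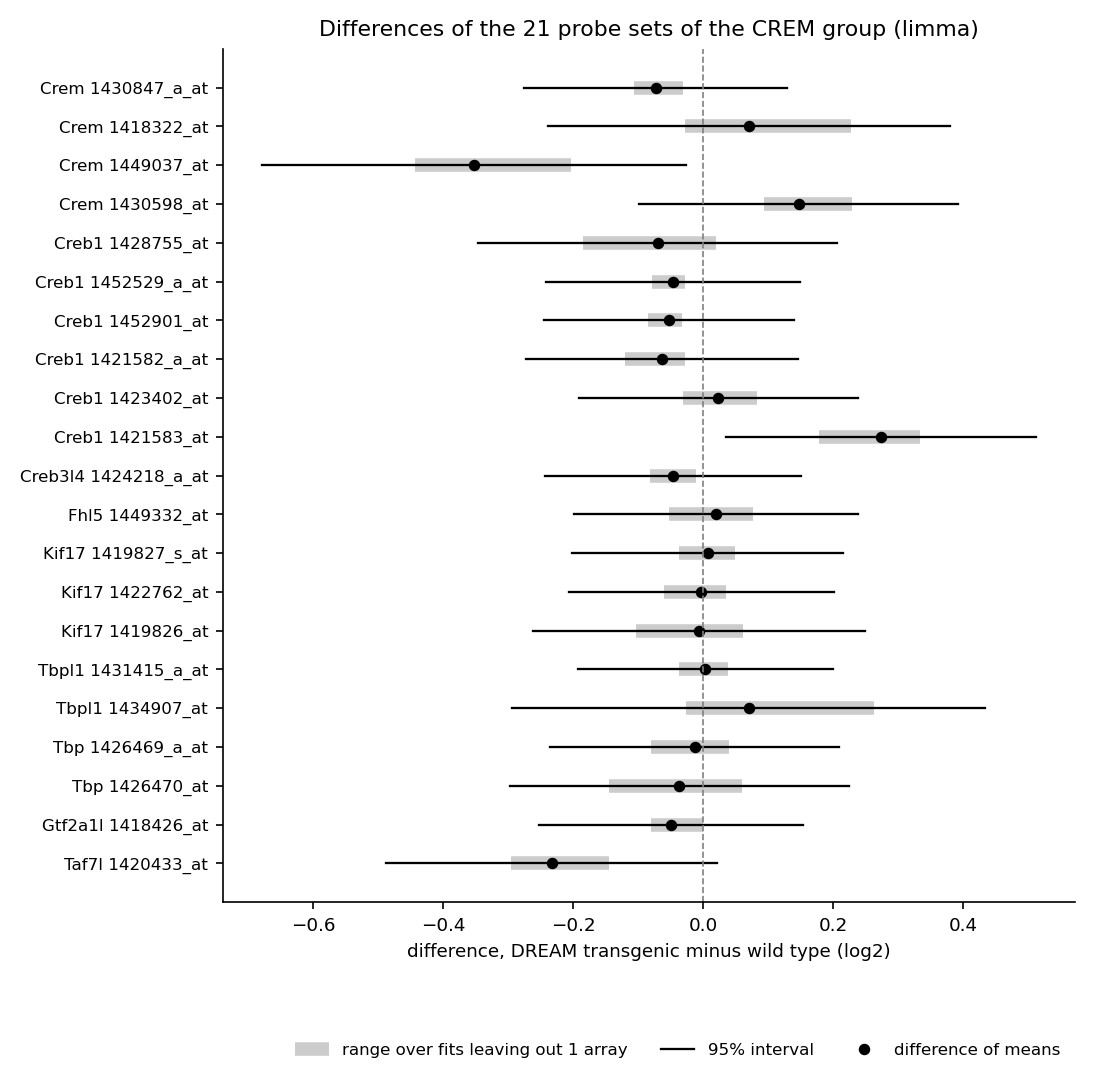
Difference of each probe set, DREAM transgenic minus wild type (log2, x axis), with 1 row per probe set: the point is the difference of the group means (n = 3 each), the thin line its 95% interval from limma, and the grey bar the range over 6 fits that each leave out 1 array. Intervals of 19 of the 21 probe sets include 0, and those of Crem 1449037_at and Creb1 1421583_at do not.

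Crem has 4 probe sets, and their differences ran in both directions. The brightest, 1430847_a_at (a class of probe set that matches several transcripts of 1 gene), read 10.36, 10.43 and 10.30 in transgenic and 10.37, 10.52 and 10.42 in wild type testis. The groups overlapped, and the difference was -0.07 (SE 0.09, 95% interval -0.28 to 0.13, limma adjusted p = 0.965). Probe set 1418322_at read 7.31, 7.13 and 7.24 in transgenic and 6.96, 7.47 and 7.04 in wild type testis, a difference of 0.07 (SE 0.14, adjusted p = 0.979). Here wild type replicate 2 was the highest array and the other wild type arrays the lowest, and without that array the difference was 0.23 (adjusted p = 0.408).

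The third Crem probe set, 1449037_at, read 5.83, 5.49 and 5.71 in transgenic and 5.85, 6.33 and 5.91 in wild type testis. All transgenic arrays lay below all wild type arrays, by a gap of only 0.02 between the nearest of them. The difference was -0.35 (SE 0.14, 95% interval -0.68 to -0.03, a fold of 0.783), with an unadjusted p of 0.0366 and a limma adjusted p of 0.699. Leaving out 1 array at a time gave differences from -0.44 to -0.20, and the value nearest 0 came without wild type replicate 2. With the Gapdh excess as a covariate it was 0.02. That excess did not overlap between the groups, so this fit separates it poorly from genotype. The dimmest probe set, 1430598_at, read 3.48, 3.64 and 3.72 in transgenic and 3.36, 3.63 and 3.41 in wild type testis, a difference of 0.15 in the opposite direction (adjusted p = 0.918). Its readings lie near the lowest value on any array (2.88) and are not shown to be above background. Crem is known to give activator isoforms and, from an internal promoter, the short repressor ICER. The sources used here do not say which isoforms each probe set matches.

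**Figure D2:**
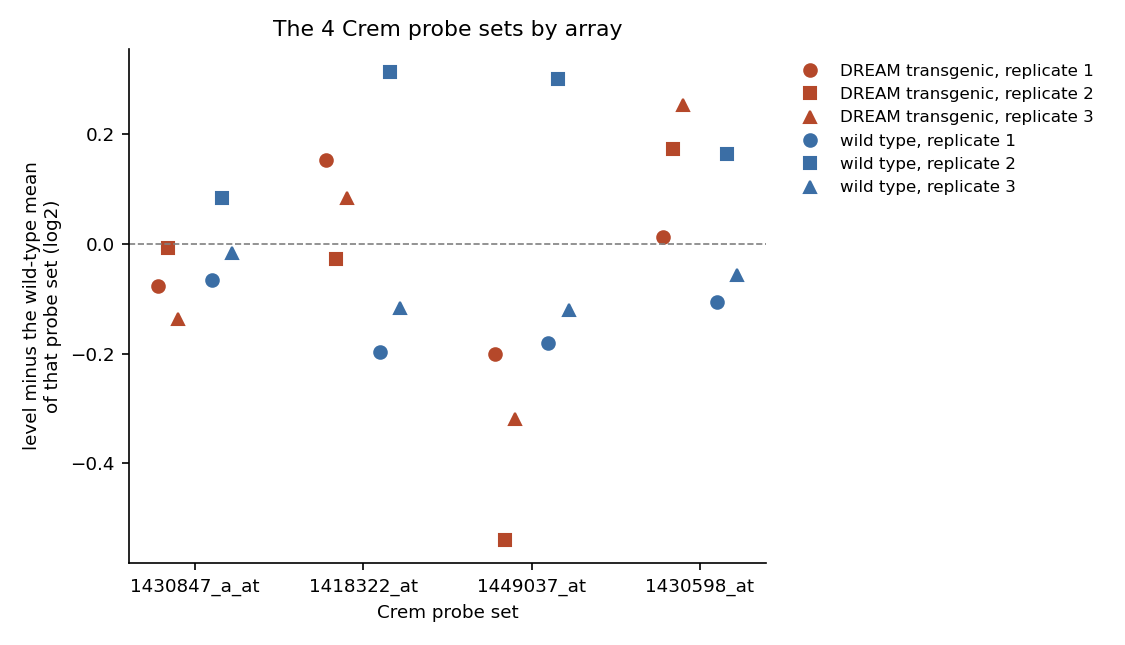
Level of each Crem probe set on each array minus the wild type mean of that probe set (log2, y axis), with the 4 probe sets from brightest to dimmest along the x axis and a symbol for each replicate. At 1449037_at the transgenic arrays all lie below the wild type arrays, while at the other 3 probe sets the groups overlap.

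Unequal change among the Crem probe sets was tested within arrays, over all 6 pairs of the 4 probe sets, a comparison chosen after the values were seen. The excess of 1418322_at over 1449037_at was 1.48, 1.64 and 1.53 in transgenic and 1.11, 1.14 and 1.13 in wild type testis. These groups were apart by 0.34 at their nearest arrays, and their means differed by 0.42 (log2). The exact permutation test gave a two-sided p of 0.1, the smallest that 3 against 3 allows, and 0.15 after Benjamini-Hochberg adjustment over the 6 pairs. Another 3 pairs reached the same p, each of them holding 1449037_at or the dim 1430598_at. No pair could go below that p at this number of arrays.

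Creb1, the CRE-binding factor of most somatic cells, has 6 probe sets. Its brightest, 1428755_at, read 7.19, 7.03 and 7.26 in transgenic and 7.00, 7.41 and 7.28 in wild type testis, with overlapping groups (difference -0.07, SE 0.12, limma adjusted p = 0.978). Probe sets 1452529_a_at, 1452901_at, 1421582_a_at and 1423402_at differed by -0.05, -0.05, -0.06 and 0.02, with SEs from 0.09 to 0.10 and adjusted p of at least 0.972. The dimmest, 1421583_at, read 3.34, 3.29 and 3.60 in transgenic and 3.09, 3.11 and 3.21 in wild type testis. Those groups did not overlap, and the difference was 0.27 (SE 0.11, 95% interval 0.03 to 0.51, unadjusted p = 0.0293, adjusted p = 0.657). That reading is likewise near the lowest value, and the 5 brighter probe sets of Creb1 had overlapping groups.

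Creb3l4, also called TISP40, is a spermatid transcription factor of the same bZIP class that is anchored in the endoplasmic reticulum membrane. It read 11.16, 11.30 and 11.23 in transgenic and 11.28, 11.32 and 11.23 in wild type testis with its only probe set. The groups overlapped and the difference was -0.05 (SE 0.09, 95% interval -0.24 to 0.15, limma adjusted p = 0.978), which bounds the fold between 0.845 and 1.11.

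**Figure D3:**
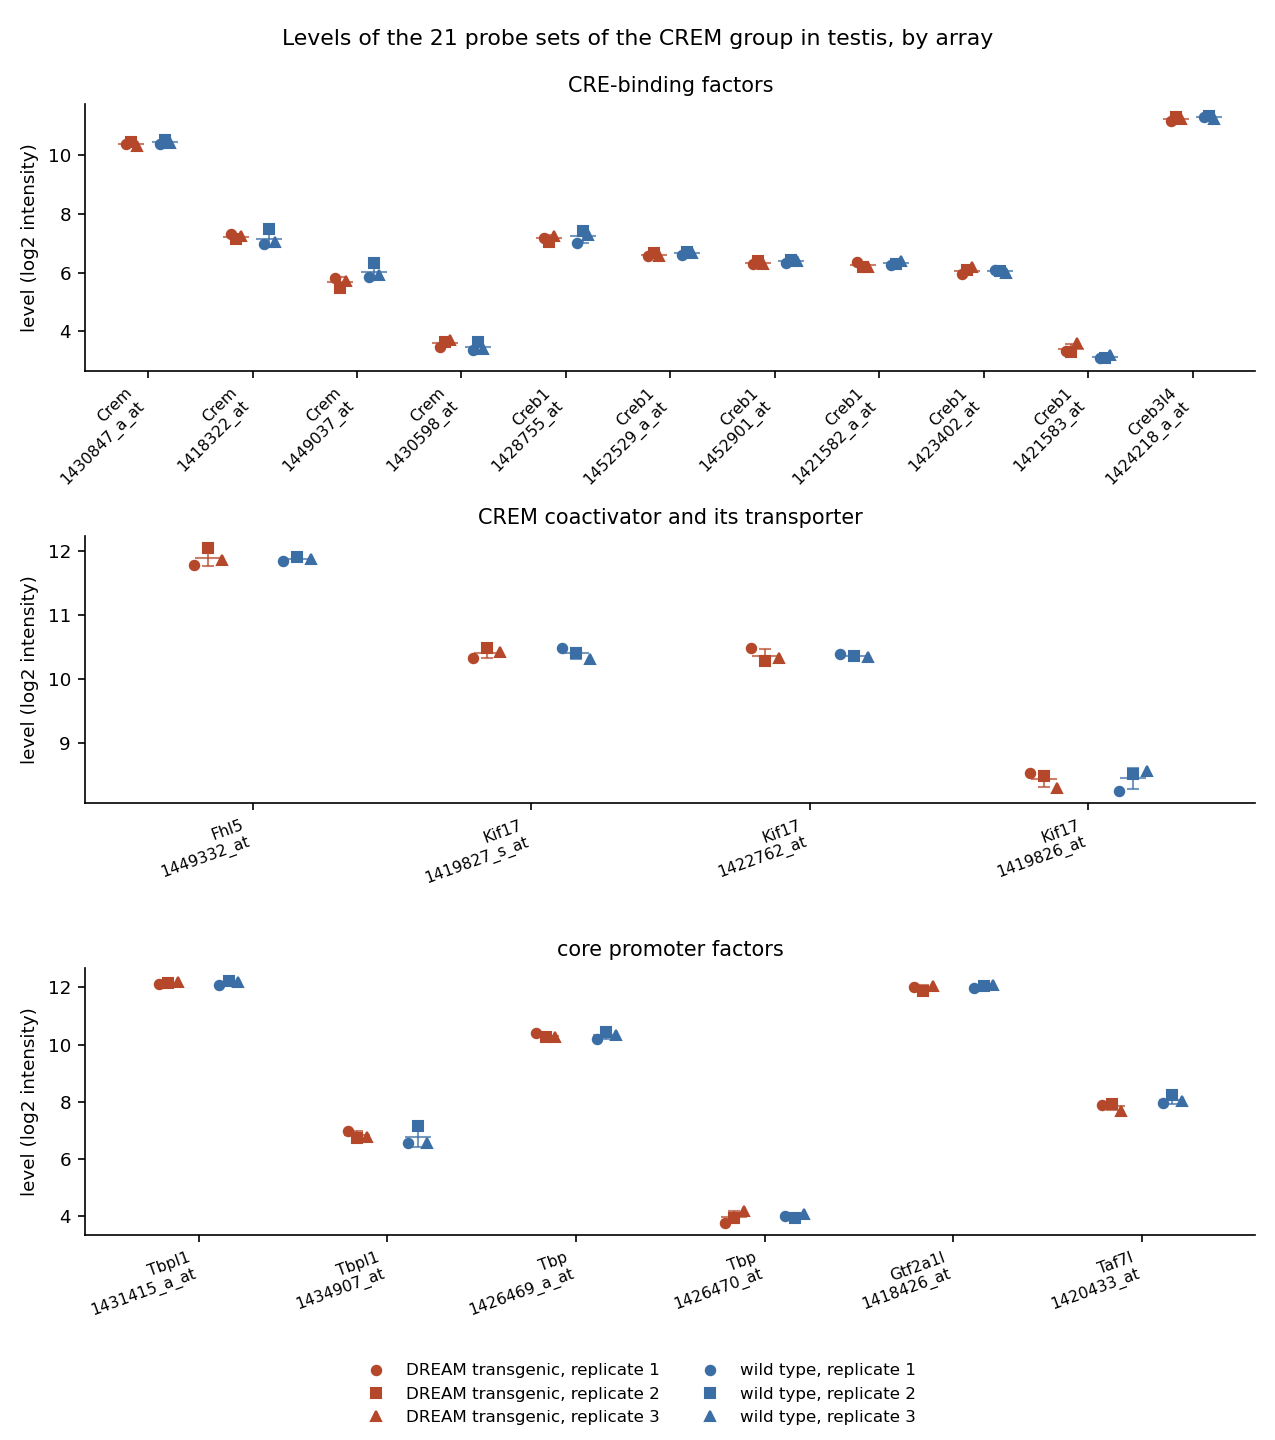
Level of each of the 21 probe sets (log2 intensity, y axis, with a separate range per panel) on the 3 DREAM transgenic arrays and the 3 wild type arrays. Panels hold the CRE-binding factors, ACT with its transporter, and the core promoter factors; bars are the mean ± SD (n = 3). Groups overlap at 18 of the 21 probe sets.

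Fhl5, the gene of ACT, read 11.78, 12.04 and 11.86 in transgenic and 11.84, 11.91 and 11.87 in wild type testis. The transgenic arrays gave both the highest and the lowest reading, and the difference was 0.02 (SE 0.10, 95% interval -0.20 to 0.24, limma adjusted p = 0.993). The fold was 1.01, with bounds of 0.872 and 1.18. Kif17 has 3 probe sets. The brightest, 1419827_s_at (a class that can match several genes), read 10.33, 10.48 and 10.43 in transgenic and 10.49, 10.41 and 10.32 in wild type testis. Probe set 1422762_at read 10.48, 10.29 and 10.33 in transgenic and 10.40, 10.36 and 10.35 in wild type testis. Both overlapped between groups, and the 3 probe sets differed by 0.01, -0.0033 and -0.01, with adjusted p of 0.995 each. The third, 1419826_at, read 8.54, 8.49 and 8.31 in transgenic and 8.26, 8.53 and 8.57 in wild type testis. Nor do they say whether these probe sets separate the testis isoform of KIF17 from the form of neurons.

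The full CRE searched for was the palindrome TGACGTCA, in the 250 bases before the most upstream start of each gene. Of 9 genes of the group with a RefSeq promoter sequence here (GRCm38.p6), only Kif17 holds it there. Other starts of a gene were not searched, and whether the testis transcripts begin at this start was not tested. On either strand, the palindrome stands in 1.60% of 27025 such windows. The shorter core TGACG, which the palindrome contains, stands in 17.8% of them and in 2 of the 9 here, Kif17 and Atf1. Both stretches are shown with the motif in capitals, to let the CRE of Kif17 be compared with the core in Atf1, the gene without a usable probe set. The Kif17 stretch is chr4:138262140-138262197 and the Atf1 stretch chr15:100227744-100227798, both on the plus strand, with the motif at position -86 in Kif17 and -90 in Atf1, counted from the gene's start.
Kif17: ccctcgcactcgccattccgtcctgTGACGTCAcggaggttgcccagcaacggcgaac
Atf1: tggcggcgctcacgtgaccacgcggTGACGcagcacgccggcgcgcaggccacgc
These are matches of letters and not sites shown to be bound. Kif17, with the palindrome, had differences within 0.01 of 0 (log2) at its 3 probe sets.

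Tbpl1, without which mouse spermatids fail to mature, read 12.13, 12.16 and 12.20 in transgenic and 12.08, 12.23 and 12.17 in wild type testis with its brighter probe set, 1431415_a_at. All 3 transgenic readings lay inside the wild type range, and the difference was 0.0033 (SE 0.09, 95% interval -0.19 to 0.20, limma adjusted p = 0.995). Its other probe set, 1434907_at, read 7.00, 6.73 and 6.77 in transgenic and 6.57, 7.15 and 6.57 in wild type testis (difference 0.07, SE 0.16, adjusted p = 0.982). Wild type replicate 2 was again the highest array, and without it the difference was 0.26 (adjusted p = 0.382).

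Tbp, which binds the TATA box and is unusually abundant in rodent spermatids, read 10.40, 10.28 and 10.25 in transgenic and 10.19, 10.43 and 10.35 in wild type testis with its brighter probe set (difference -0.01, SE 0.10, limma adjusted p = 0.993). Its dim probe set, 1426470_at, differed by -0.04 (SE 0.12, adjusted p = 0.987). Gtf2a1l, the germ cell form of the large TFIIA subunit, read 12.02, 11.88 and 12.04 in transgenic and 11.97, 12.05 and 12.07 in wild type testis. Its groups overlapped as those of Tbp did, with a difference of -0.05 (SE 0.09, 95% interval -0.25 to 0.15, adjusted p = 0.978).

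Taf7l, the X-linked germ cell relative of the TFIID subunit Taf7, had the difference farthest from 0 among the 4 core promoter genes of the group. It read 7.89, 7.94 and 7.69 in transgenic and 7.95, 8.25 and 8.02 in wild type testis with its only probe set. Every transgenic array lay below every wild type array, though the nearest were 0.01 apart. The difference was -0.23 (SE 0.11, 95% interval -0.49 to 0.02, a fold of 0.851), with an unadjusted p of 0.068 and a limma adjusted p of 0.789. Over fits without 1 array it ran from -0.30 to -0.15, and with the Gapdh excess, poorly separable from genotype, as a covariate it was 0.12. Its somatic relative Taf7 read 0.0067 (SE 0.13, adjusted p = 0.995) as a difference.

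Markers of the cells in whole testis are given beside the readings of Taf7l and Crem 1449037_at. The brightest probe sets of 5 of 6 spermatocyte markers were lower in transgenic testis, and 3 of the 6 had an unadjusted p under 0.05, against 7.48% of all genes. Hspa2, the brightest, was the one above 0, at 0.09. None of the 6 passed the adjusted threshold, and groups did not overlap at 3 of them, against 11.3% of all probe sets. Summed linear intensity of the 6 ran from 8993 to 9147 in transgenic and from 9414 to 9654 in wild type testis, with no overlap. For round spermatid markers, 4 of 6 were lower, groups did not overlap at 3 of the 6, and 1 had an unadjusted p under 0.05. None of these passed, and the sums, 12740 to 14445 in transgenic and 13883 to 14156 in wild type testis, overlapped. All 4 endothelial markers lay above 0, where 57.7% of all genes did, and none passed. Groups did not overlap at 3 of the 4, and 3 had an unadjusted p under 0.05. The endothelial markers read between 4.26 and 6.04, with sums of 159 to 160 in transgenic and 125 to 140 in wild type testis. All 4 peritubular myoid markers lay below 0, from -0.33 to -0.08, and none passed. Groups overlapped at each of the 4, and 1 had an unadjusted p under 0.05. Their sums were 1450 to 1737 in transgenic and 1684 to 1802 in wild type testis. Of 4 Leydig cell markers measured, only the steroidogenic enzyme gene Hsd3b1 passed, at 9.97, 9.87 and 9.75 in transgenic and 8.20, 8.64 and 8.30 in wild type testis (difference 1.48, SE 0.13, limma adjusted p = 0.00109). The other 3 lay between -0.06 and 0.03. Of 4 macrophage markers, 3 lay above 0 and 1 had an unadjusted p under 0.05. Their sums were 469 to 485 in transgenic and 382 to 464 in wild type testis. Elongating spermatid markers lay 3 above and 3 below 0 (median -0.005), and 2 of the 6 had an unadjusted p under 0.05. Medians were 0.0033 for Sertoli cell, 0.04 for spermatogonial, 0.07 for epididymal and 0.01 for red cell markers, with 0 under that p. None of these markers passed. The part of cell makeup in the readings of Taf7l and Crem was not tested, and in whole testis fewer cells of a type and less RNA per cell cannot be told apart.

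Genes of a list described as CREM-dependent in spermatids gave differences close to 0, though many read near the top of the scale. None of the 12 measured members passed in either direction, against 0.797% of all genes with any probe set that passed. Their differences ran from -0.02 to 0.08 with a median of 0.0016 (log2), against a median of 0.02 over all genes, and 6 lay above 0, 5 below and 1 at 0, where 57.7% of all genes lay above. Of the 10 with a promoter window, 1 held the core TGACG, the sperm lactate dehydrogenase gene Ldhc, and 0 held the palindrome. Over all windows the shares were 17.8% and 1.6%. Only these exact letters in 1 window per gene were searched, so a site elsewhere or of other letters would not show. The nuclear packaging gene Prm1 read 14.07, 14.11 and 14.12 in transgenic and 14.08, 14.10 and 14.11 in wild type testis, and Tnp1 differed by -0.02 (SE 0.09, limma adjusted p = 0.993). Akap4, an anchoring protein of the fibrous sheath, had the smallest p among brightest probe sets of the list, at 13.12, 13.09 and 13.14 in transgenic and 13.00, 13.08 and 13.03 in wild type testis. Its groups were 0.01 apart, and the difference was 0.08 (SE 0.08, adjusted p = 0.956). Its other probe sets overlapped between groups and differed by 0.07 and -0.04. Camk4, whose gene also gives the testis protein calspermin, followed at 0.08 (SE 0.09, adjusted p = 0.965), and its 4 dimmer probe sets differed by -0.04, -0.08, 0.03 and -0.03. The highest value on any array was 14.24, and Prm1, Prm2, Tnp1, Tnp2, Ldhc and Odf1 averaged between 13.44 and 14.10, where an array can understate a difference. Smcp, Gapdhs and Akap4 came next, with group means between 13.04 and 13.18.

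**Figure D4:**
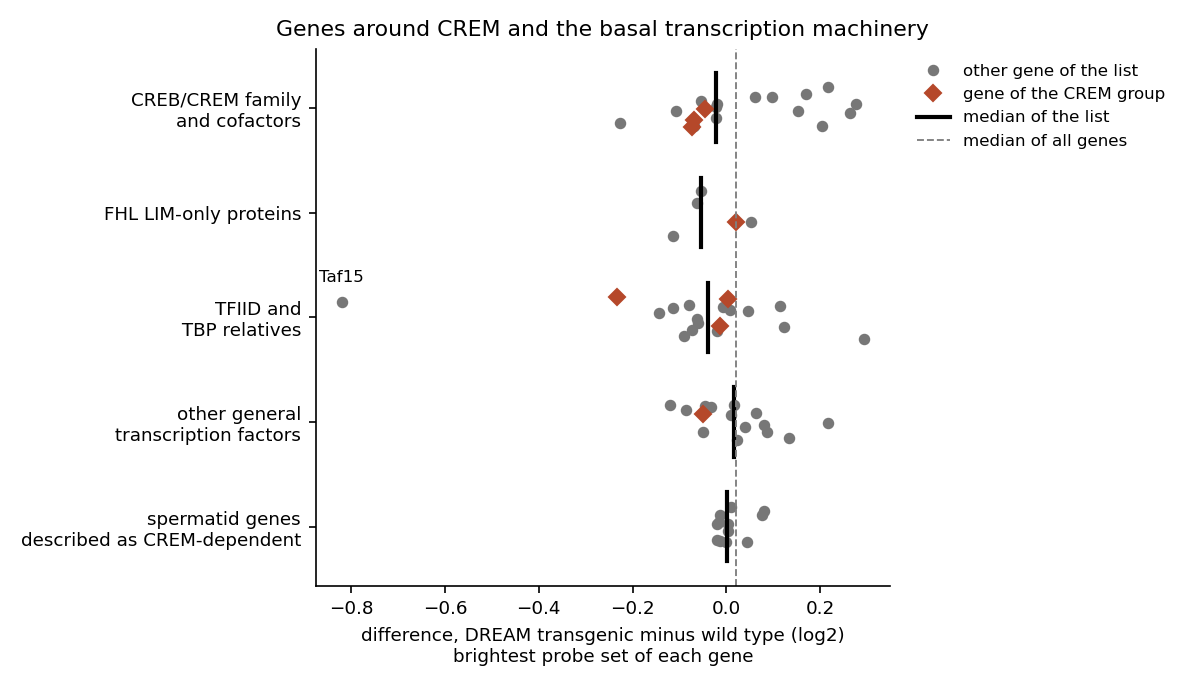
Difference of each gene's brightest probe set, DREAM transgenic minus wild type (log2, x axis), for 5 lists (rows); diamonds are genes of the CREM group, circles the other genes of a list, vertical bars the list medians and the dashed line the median of all genes (0.02). The 12 genes described as CREM-dependent lie between -0.02 and 0.08. Taf15 stands at -0.82, apart from the other TFIID genes, with a probe set that is the brighter through the wild type arrays alone. Its other probe set differs by -0.13.

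Among the CREB and CREM family with its coactivators, 0 of 18 measured genes passed, against 0.797% of all genes with any probe set that passed. The median difference was -0.02, against 0.02 over all genes. Atf2, a bZIP factor that responds to stress kinases, had the smallest p among brightest probe sets, at 9.05, 9.21 and 9.00 in transgenic and 8.67, 8.93 and 8.87 in wild type testis. Transgenic arrays were all the higher ones (difference 0.26, SE 0.11, limma adjusted p = 0.679), and its 4 other probe sets differed by 0.24, 0.12, 0.18 and 0.03 with overlapping groups. Counting any probe set, the dim Creb1 probe set described above had a smaller adjusted p (0.657). So did 2 relatives of CREB, Crebzf at 0.345 (1434618_at, difference -0.30) and Creb3 at 0.538 (1419979_s_at, difference -0.34). Their brightest probe sets differed by -0.07 and 0.17 (adjusted p = 0.97 and 0.857). Creb3l1, a relative of Creb3l4, differed by 0.28 (SE 0.14, adjusted p = 0.81). The coactivators Crebbp and Ep300, which are recruited by phosphorylated CREB, differed by -0.02 and 0.10 (adjusted p = 0.992 and 0.965). Of the FHL family to which ACT belongs, 0 of 5 genes passed, where 0.797% of all genes did. Fhl3 and the testis gene Fhl4 had the smallest p, with differences of -0.11 and -0.05 (adjusted p = 0.968 and 0.974).

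In TFIID with the TBP relatives, 0 of 18 measured genes passed, where 0.797% of all genes did. Of the 18, 12 lay below 0, where 57.7% of all genes lay above, and the median difference was -0.04. Taf15, an RNA-binding protein of the FET family that associates with TFIID, had the smallest p. Its probe set 1438130_at, the brighter over all 6 arrays, read 4.28, 4.64 and 4.16 in transgenic and 5.41, 5.14 and 4.99 in wild type testis, with no overlap. The difference was -0.82 (SE 0.15, 95% interval -1.16 to -0.48, limma adjusted p = 0.0662), at levels not shown to be above background. It passed after quantile normalization again (adjusted p = 0.0477), after median centring (0.0474), with trend and robust variance moderation (0.0313) and without wild type replicate 2 (0.0449). It also passed with array weights (0.0062), which put 19.12 on wild type replicate 3 and 0.24 to 0.81 on the other arrays. Leaving out any other array gave adjusted p from 0.0913 to 0.311, the replicate block 0.0941 and the Gapdh excess as covariate 0.399. The other Taf15 probe set read 4.45, 4.24 and 4.51 in transgenic and 4.70, 4.02 and 4.88 in wild type testis, a difference of -0.13 (adjusted p = 0.972). Probe set 1438130_at was the brighter through the wild type arrays alone, averaging 4.36 in transgenic and 5.18 in wild type testis, where the other averaged 4.40 in transgenic and 4.53 in wild type testis. Choosing by brightness thus favoured the larger difference. Taf4, a scaffold subunit of TFIID, differed by 0.29 (SE 0.11, adjusted p = 0.6) with 1 probe set and by 0.0067 (adjusted p = 0.995) with its other.

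Of 15 other general transcription factors measured, 0 passed, where 0.797% of all genes did, and the median difference was 0.02. The TFIIH subunit gene Gtf2h3 read 0.22 (SE 0.11, limma adjusted p = 0.822) and the TFIIE subunit gene Gtf2e2 read -0.12 (SE 0.10, adjusted p = 0.929) as differences. Gtf2a1, the somatic counterpart of Gtf2a1l, differed by 0.01 (SE 0.12, adjusted p = 0.995).

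The genes whose pattern over the 6 arrays was nearest to the brightest Crem probe set were Zdhhc6, a palmitoyltransferase, Fam227a and the RNA methyltransferase relative Nsun7. Each profile was centred on its own mean, and the root mean square distance to Crem was 0.0125, 0.0146 and 0.0163 (log2). Crem's own spread by the same measure was 0.0686, and 554 genes lay within 0.05 of it, so the likeness is to a nearly flat profile. Zdhhc6 read 7.51, 7.58 and 7.46 in transgenic and 7.53, 7.70 and 7.60 in wild type testis.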

How the data were processed

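What the authors deposited is 1 table of log2 probe set values with 2 decimals. RMA and affy are named in the submitters' processing notes, without a version. Because RMA equalises the arrays, a global change in transcript amount would not show. Of the probe sets, 64 controls were left out and 45037 were tested with no filter. The array annotation gave 34945 of them 1 gene, 932 several and 9160 none here. Of the single-gene probe sets, 34741 were found in a RefSeq gene table, which gave their current symbol. The 3 transgenic and 3 wild type arrays were tested two-sided by limma (version 3.58.1, R 4.3.3) with lmFit and eBayes. The p-values set each difference against the spread between these samples, moderated over all probe sets. They were adjusted over all tested probe sets by Benjamini and Hochberg's method. Single values used exact permutation tests (scipy 1.17.1). A gene in a list is represented by its brightest probe set, and each list names its called genes or else the 2 of smallest p. The genes nearest to Crem are the 3 of smallest distance, leaving out clone-style symbols. A list gene counts as passed through any of its probe sets. Prm1, Tnp1, Ldhc, Crebbp, Crebzf, Creb3, Ep300, Taf7 and Gtf2a1 were named after their values were seen. Members, lists and tests were chosen with earlier results of these data known. The fit was tested on simulated data. No array's values copied another's.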

Additional observations from a re-analysis of the deposited data

How the results depend on the processing

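None of the 21 probe sets of the CREM group passed under any alternative fit run: the smallest adjusted p was 0.0958 with array weights and 0.382 or more in the others, and 2 passed at an unadjusted p under 0.05. Dropping the lowest 40% left 18 of the 21. Over all probe sets the count of 200 became 306 with trend and robust moderation, 117 with the replicate block, 18 with the Gapdh covariate and 3015 at an unadjusted p under 0.05. It ran from 70 to 429 when 1 array was left out, the highest without wild type replicate 2 and the lowest without wild type replicate 3 (71, 75 and 73 without transgenic replicates 1, 2 and 3). Array weights gave 4160, from an estimate that did not converge and weighted wild type replicate 3 by 19.12 against 0.24 to 0.81 for the other arrays. In the lists, 6 CREB and CREM family genes, 3 TFIID genes and 1 other general factor passed with array weights, and 1 TFIID gene (Taf15) passed with quantile normalization again, median centring, and trend and robust moderation, and 0 to 1 when 1 array was left out. At an unadjusted p under 0.05 for any probe set these counts were 5 for the CREB and CREM family (1 by brightest probe sets) and 2 for TFIID. Those lists hold 52 and 31 probe sets, and 6.69% of all probe sets were under that p.

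The replicate block left 0 of the 21 probe sets past the threshold (smallest adjusted p = 0.894). Deviations of same-numbered arrays correlated at -0.319, -0.065 and -0.012, so the numbers are not shown to pair the arrays.

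Signs turned, also of the group's larger differences (up to 0.3533 in size, Crem 1449037_at), none of them past the threshold, and the cause was not tested. With the Gapdh covariate 12 of the 21 did: Crem 1430847_a_at read 0.077 and 1449037_at 0.021; Creb1 1428755_at 0.12, 1452529_a_at 0.033, 1452901_at 0.0135, 1421582_a_at 0.083 and 1423402_at -0.18; Kif17 1419827_s_at -0.11, 1422762_at 0.076 and 1419826_at 0.35; Tbp 1426469_a_at 0.25; and Taf7l 0.12. Fhl4 read 0.0395 and Taf4 -0.038 there. The Gapdh excess did not overlap between groups, so that fit separates it poorly from genotype. Median centring, which lowers all differences by 0.0233, gave Fhl5 -0.0033, Kif17 1419827_s_at -0.0167 and Tbpl1 1431415_a_at -0.02. Kif17 1422762_at read 0.01 after quantile normalization again and 0.017 with array weights, with which Tbpl1 1431415_a_at read -0.0058 and Fhl3 0.0999. Averaging a gene's probe sets gave Creb1 0.0106 and Kif17 -0.0011. With 1 array left out, signs turned within these ranges: Crem 1418322_at -0.028 to 0.23; Creb1 1428755_at -0.185 to 0.02 and 1423402_at -0.032 to 0.083; Fhl5 -0.053 to 0.077; Kif17 1419827_s_at -0.037 to 0.048, 1422762_at -0.06 to 0.035 and 1419826_at -0.10 to 0.062; Tbpl1 1431415_a_at -0.037 to 0.038 and 1434907_at -0.027 to 0.26; Tbp 1426469_a_at -0.08 to 0.04 and 1426470_at -0.145 to 0.06; and Fhl3 -0.225 to 0.015. The Gapdh difference ran from 0.125 to 0.185 and that of beta-actin from -0.0033 to 0.042.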
